A study of Rattus norvegicus with 6 samples.

Results

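The miR-29 family was followed as 6 mature strands, rno-miR-29a, rno-miR-29b and rno-miR-29c with a 3p and a 5p strand each, out of 758 miRNAs on a rat miRNA microarray. The strands were chosen by name from the array's own annotation, with earlier results of these data known. They were read by 16 probes and 96 spots per array. Samples were left ventricular myocardium of 8-week-old male rats, with 3 samples collected at 24 h from rats whose left coronary artery had been ligated (MI) and 3 control samples from rats operated on in the same way but without ligation and labelled 0 h. Time after surgery and ligation can therefore not be told apart. Each sample was run on 1 single-colour array. The labels do not link samples to animals, so p-values reflect only sample-to-sample spread here, which may be technical. Only animals in which the infarction was judged successful entered the MI group, and the labels do not say whether the tissue came from the infarct, its border or the remote wall. In such bulk tissue, fewer cells of a type and less RNA per cell cannot be told apart.

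MicroRNAs are short RNAs that guide a silencing complex to messenger RNAs, mainly through the seed near their 5′ end. The 3p strands of miR-29 are the guides of this family and are known for repressing genes of the extracellular matrix, among them collagens, fibrillin and elastin, for which reason they are called antifibrotic. Cardiac fibroblasts are a main source of these matrix proteins, and lower miR-29 next to an infarct has been described in mouse hearts in the days and weeks after ligation. The 5p strands are the other arm of the same hairpins and usually the less abundant product.

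The mature strands are shown because the shared seed defines the family and because the close likeness of the 3p strands bears on what the probes can tell apart. All 6 names matched RefSeq sequences (build GRCr8), and capitals mark the seed, bases 2 to 8 from the 5′ end.
miR-29a-3p: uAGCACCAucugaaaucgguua
miR-29b-3p: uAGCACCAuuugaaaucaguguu
miR-29c-3p: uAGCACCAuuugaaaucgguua
miR-29a-5p: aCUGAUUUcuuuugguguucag
miR-29b-5p: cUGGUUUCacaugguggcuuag
miR-29c-5p: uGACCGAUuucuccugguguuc
The 3p strands share 1 seed, which no other of the 693 mature rat names in that table carries. The 5p strands have a different seed each, shared with no other name there. Between miR-29a-3p and miR-29c-3p, 21 of 22 bases are the same and the only difference is C10U, counted from the 5′ end. Over the first 22 bases, miR-29b-3p differs from miR-29c-3p at 3 positions (A18G, G21U and U22A) and from miR-29a-3p at 4. The probe sequences were not used here, and how much of each neighbour a 3p probe also captures was not tested.

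The strands come from a pair of clusters. On chromosome 4, minus strand, Mir29a carries miR-29a-5p at chr4:60618006-60618027 and miR-29a-3p at chr4:60617968-60617989, and Mir29b1 carries a copy of miR-29b-3p at chr4:60618342-60618364. On chromosome 13, plus strand, Mir29b2 carries miR-29b-5p at chr13:109098841-109098862 and the other copy of miR-29b-3p at chr13:109098882-109098904, and Mir29c carries miR-29c-5p at chr13:109099374-109099395 and miR-29c-3p at chr13:109099412-109099433. The hairpins of a cluster lie 291 bases apart on chromosome 4 and 447 bases apart on chromosome 13. Both copies of miR-29b-3p have the same sequence, so its signal cannot be assigned to a cluster. The Mir29c hairpin, the precursor of the tested strand with the lowest MI value relative to controls (miR-29c-5p), is printed with its 5p and then its 3p strand in capitals.
Mir29c: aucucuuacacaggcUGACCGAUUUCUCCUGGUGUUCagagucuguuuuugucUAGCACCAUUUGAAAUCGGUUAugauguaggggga

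Values are given as log2 signal, the log2 of the background-subtracted fluorescence summed over the probes of a miRNA after each array was scaled to a common level. The probes of different miRNAs differ in brightness, so levels are compared between arrays and not between strands. The MI arrays detected 446 to 468 miRNAs and the control arrays 447 to 472, and the median SD between replicates was 0.12 in MI and 0.115 in controls. All 6 heart muscle miRNAs of the marker list were measured on these arrays, and 0 of the 6 passed the test, against 2.45% of all tested miRNAs. Their lowest p was that of miR-208a-3p, whose groups did not overlap (limma unadjusted p = 0.0425). Of all tested miRNAs, 20.7% had groups that did not overlap, and 13.6% had an unadjusted p under 0.05. MI replicate 1 and the 3 controls carry one header code, and MI replicates 2 and 3 carry another. Control replicate 3 was scanned separately from the other 5 arrays.

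None of the 5 tested miR-29 strands passed limma's moderated test for a change 24 h after MI, which does not show that they were unchanged. Of the 6 strands, 5 were bright enough to be tested, and 0 of these 5 passed an adjusted p of 0.05, where 2.45% of all 449 tested miRNAs did (11 miRNAs). At an unadjusted p under 0.05 the count was 0 of 5 as well, against 13.6% of all tested miRNAs. All 5 log2 differences (MI minus control) lay below 0, from -0.21 for miR-29c-5p to -0.0027 for miR-29b-3p. The share below 0 over all tested miRNAs was 45.2%. Deviations of the 5 strands from their group means correlated with each other (Pearson's r from 0.40 to 0.98), so these are not 5 separate observations. Quantile normalization turned the sign of miR-29b-3p and miR-29c-3p. The median difference of the 5 strands was -0.10, beside 0.016 over all tested miRNAs.

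**Figure D1:**
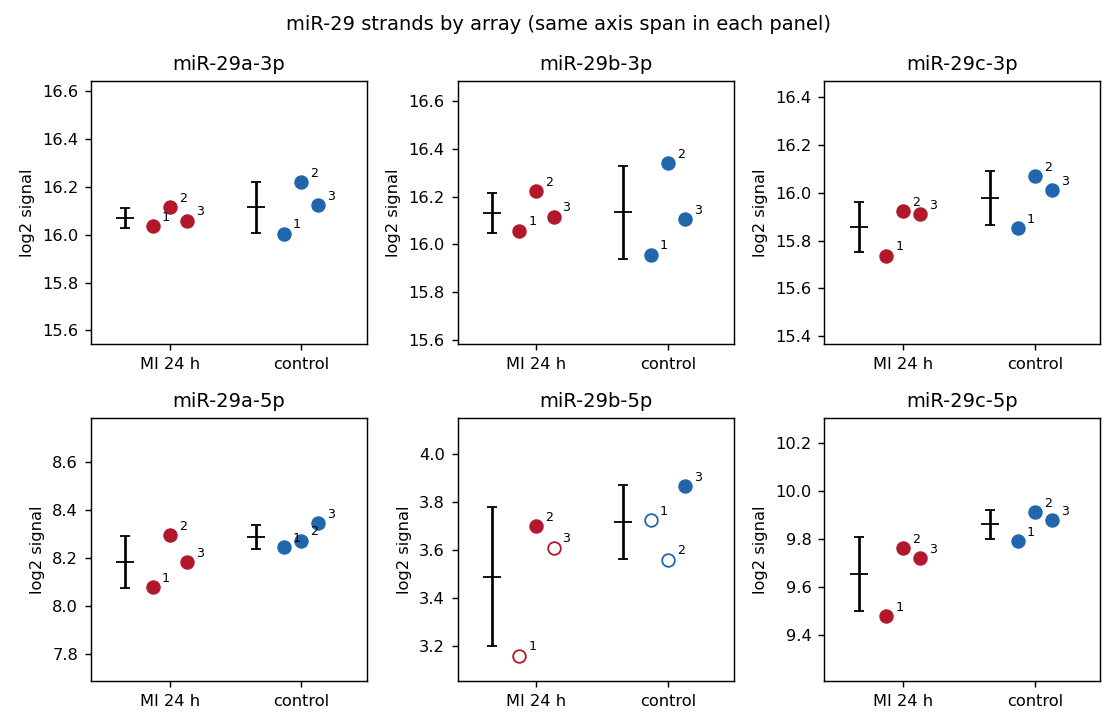
Log2 signal of each miR-29 strand on the 3 MI arrays (left) and the 3 control arrays (right), with replicate numbers beside the points, open circles for arrays on which no probe was well above background, and the mean and SD as bars. Every panel spans the same log2 range, and only for miR-29c-5p do the groups not overlap.

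Among the guide strands, rno-miR-29a-3p had log2 signals of 16.04, 16.12 and 16.06 in MI replicates 1 to 3. In control replicates 1 to 3 it had 16.00, 16.22 and 16.12. The MI arrays lay wholly inside the range of the controls. The log2 difference was -0.045 ± 0.080 with its SE over 3 arrays per group (limma adjusted p = 0.822), and the 95% interval of MI over control was 0.849-fold to 1.11-fold.

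For rno-miR-29b-3p, the strand made by both clusters, the log2 signals were 16.06, 16.22 and 16.12 in MI replicates 1 to 3. The control replicates stood at 15.96, 16.34 and 16.11. Here too the MI arrays fell between the lowest and the highest control, and the SD was 0.08 in MI and 0.19 in controls. The log2 difference was -0.0027 ± 0.11 with its SE over 3 arrays per group (limma adjusted p = 0.993), and its 95% interval was 0.827-fold to 1.20-fold. It was 0.10 without control replicate 2 and -0.092 without control replicate 1, the arrays with the highest and the lowest value.

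rno-miR-29c-3p, which shares all but 1 base with miR-29a-3p, had log2 signals of 15.74, 15.92 and 15.91 in MI replicates 1 to 3. The controls had 15.85, 16.07 and 16.01. MI replicate 1 was the lowest of the 6 arrays and control replicate 2 the highest, and the groups overlapped through control replicate 1. The log2 difference was -0.12 ± 0.092 with its SE over 3 arrays per group (limma adjusted p = 0.615), and its 95% interval was 0.790-fold to 1.07-fold. Without MI replicate 1 the difference was -0.061.

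Of the 5p strands, rno-miR-29a-5p had log2 signals of 8.08, 8.29 and 8.18 in MI replicates 1 to 3. The controls had 8.25, 8.27 and 8.35. The lower MI values came from replicates 1 and 3, and MI replicate 2 lay among the controls. The log2 difference was -0.10 ± 0.081 with its SE over 3 arrays per group (limma adjusted p = 0.621), and its 95% interval was 0.814-fold to 1.07-fold. Without MI replicate 1 it was -0.049.

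rno-miR-29c-5p stood at 9.48, 9.76 and 9.72 in MI replicates 1 to 3. Its control signals were 9.79, 9.91 and 9.88. All 3 MI arrays were below all 3 controls, which made it the 1 strand of 5 whose groups did not overlap, a pattern shared by 20.7% of all tested miRNAs, 9.8% with MI as the lower group. Relative to controls the MI signal was 0.866-fold, or -0.21 ± 0.096 as a log2 difference (SE; limma unadjusted p = 0.0706, adjusted p = 0.415, n = 3 per group). The 95% interval ran from 0.737-fold to 1.02-fold, and 9.35% of all tested miRNAs had a difference as low or lower. Without MI replicate 1 the log2 difference was -0.12, and the adjusted p lay between 0.176 and 0.700 over all alternatives tried.

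rno-miR-29b-5p, the arm opposite miR-29b-3p in Mir29b2, was at the edge of detection and was not tested. It was well above background on 1 MI array (replicate 2) and 1 control array (replicate 3), in each case through 1 of its 4 probes. Its log2 signals were 3.16, 3.70 and 3.61 in MI replicates 1 to 3. In the control replicates they were 3.72, 3.56 and 3.87. These values overlap between the groups, and no fold is given for a strand that was not well above background on most arrays.

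**Figure D2:**
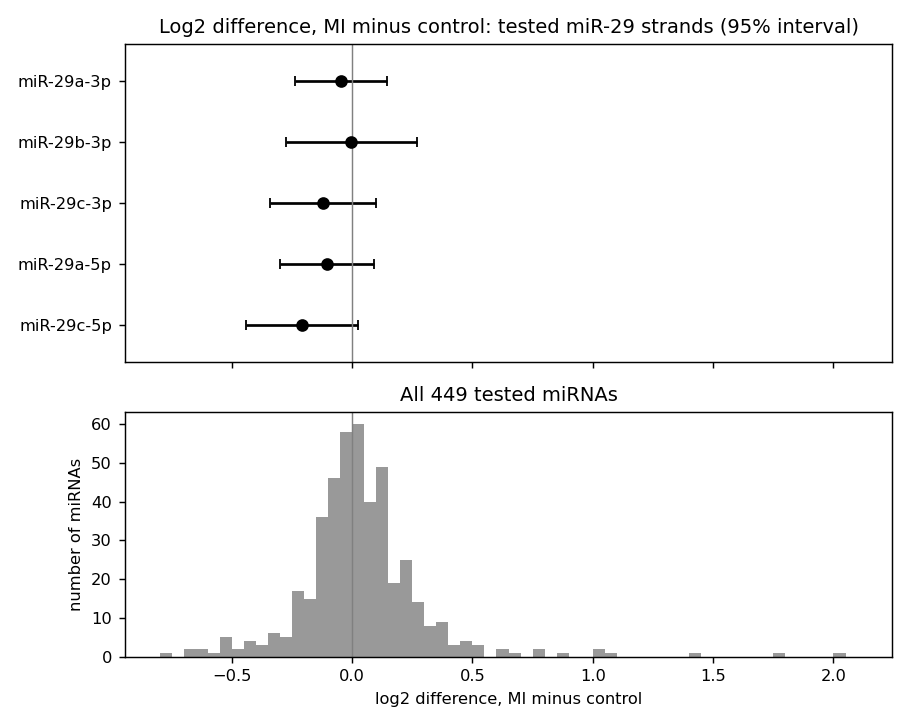
Log2 difference, MI minus control, of the 5 tested miR-29 strands with 95% intervals (top) and of all 449 tested miRNAs (bottom, number of miRNAs per bin of 0.05). All 5 intervals include 0, and the strand differences lie between -0.21 and -0.0027.

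Single probes were read next. Both probes of miR-29c-5p had lower means in MI, with log2 differences of -0.22 and -0.20, and both probes of miR-29c-3p stood at -0.12. The probes of miR-29a-3p differed by -0.035 and -0.052, and those of miR-29b-3p by 0.010 and -0.014, with opposite signs. For miR-29a-5p, 3 of 4 probes were well above background on all 6 arrays, with unequal differences of -0.23, -0.15 and -0.073. The fourth was detected on 0 arrays, at -0.017. Spots of one probe on one array varied by a median coefficient of variation of 2.38% to 7.35% for the probes of the 3p strands and of miR-29c-5p, and by 3.12% to 12.0% for the detected probes of miR-29a-5p. No spot of any miRNA was saturated.

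**Figure D3:**
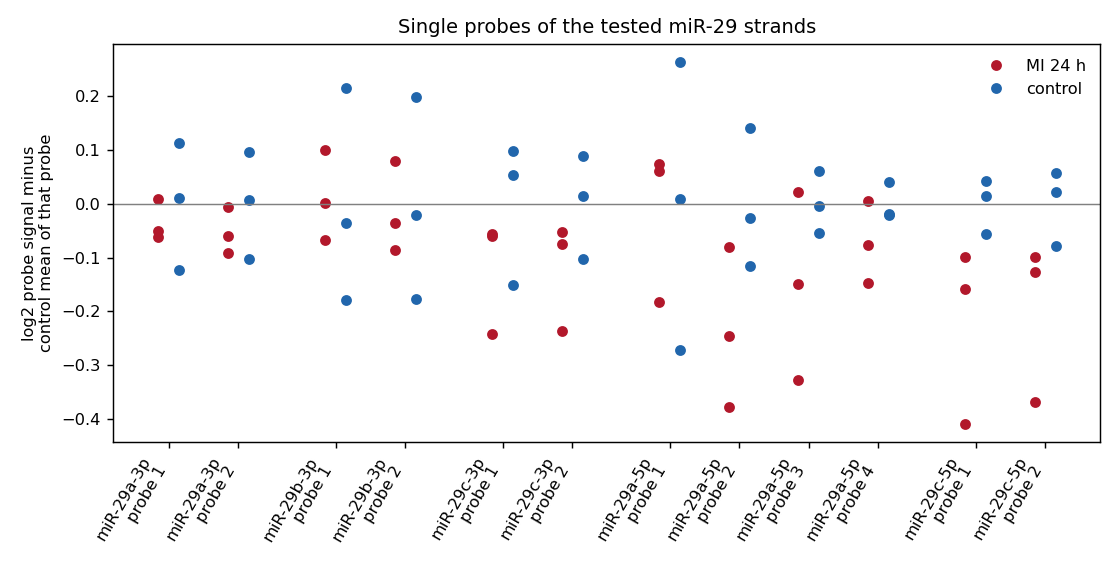
Log2 signal of each probe of the tested strands, as its distance from the control mean of the same probe, on the 3 MI arrays (left point column) and the 3 control arrays (right). For both probes of miR-29c-5p the MI arrays lie below all controls, whereas the probes of miR-29a-3p and miR-29b-3p show MI arrays within the spread of the controls.

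Whether the strands shifted unequally was asked with ratios on the same array, in which any factor common to a whole array cancels. Relative to its control mean, the log2 ratio of miR-29c-5p over miR-29c-3p was -0.14, -0.044 and -0.072 in MI replicates 1 to 3. The control replicates stood at 0.056, -0.042 and -0.014. The groups did not overlap, by a margin far smaller than the spread within either, and the group means differed by -0.087 (SD 0.052 in MI and 0.051 in controls; two-sided exact permutation p = 0.1, the smallest p that 3 against 3 arrays allow). The size of this difference depended on the processing. It was -0.26 under quantile normalization, -0.24 in the authors' processed values and -0.058 with normexp background correction. For miR-29a the group means of the 5p over 3p log2 ratio differed by -0.058 (exact permutation p = 0.5), with overlapping groups.

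Among the guides, the log2 ratio of miR-29c-3p over miR-29b-3p had group means that differed by -0.12 (exact permutation p = 0.2). That of miR-29c-3p over miR-29a-3p differed by -0.076 (exact permutation p = 0.2), and that of miR-29a-3p over miR-29b-3p by -0.043 (exact permutation p = 0.5). Adjusted over the 5 ratios computed, the p-values were 0.333 for 3 ratios and 0.5 for the others. Since this test cannot give a p under 0.1 with 3 arrays per group, it could neither show nor exclude a different response of the strands.

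**Figure D4:**
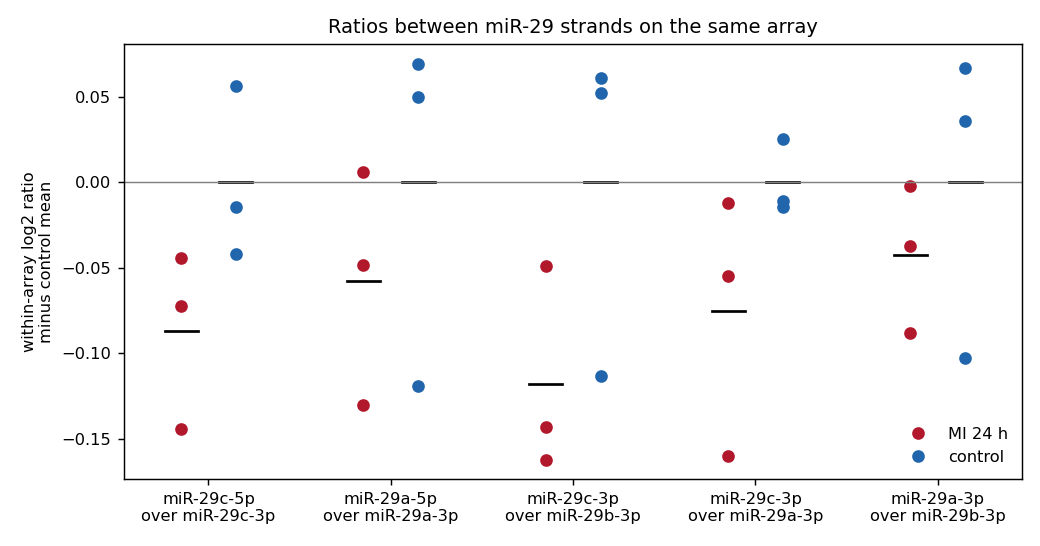
Log2 ratio between a pair of miR-29 strands on the same array, minus the control mean of that ratio, for the 3 MI arrays (left) and the 3 control arrays (right), with group means as lines. Differences between the group means (MI minus control) run from -0.12 to -0.043, and the groups overlap in 4 of the 5 ratios.

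The 3p strands varied together from array to array within each group. Averaged over the 3p strands, control replicate 1 was 0.14 below and control replicate 2 was 0.13 above the control mean on the log2 scale, while the median of all tested miRNAs on those arrays lay 0.019 above and 0.017 below it. In the MI group, the 3p strands averaged 0.076 below the group mean in replicate 1 and 0.068 above it in replicate 2, and the median of all tested miRNAs lay 0.044 and 0.0042 below it on those arrays. Deviations from the group means had a Pearson's r of 0.98 between miR-29a-3p and miR-29b-3p over the 6 arrays. It was 0.86 between miR-29a-3p and miR-29c-3p and 0.85 between miR-29b-3p and miR-29c-3p. The 5p strands miR-29a-5p and miR-29c-5p also varied together, at 0.85. The r was 0.90 between the strands of miR-29c and 0.44 between those of miR-29a. These are descriptions over arrays that share their scaling and, for the 3p strands, near-identical sequences.

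Outside the family, the tested miRNAs whose log2 signal followed the mean of the 3p strands most closely over the 6 arrays were miR-345-5p (Pearson's r = 0.955), let-7i-5p (r = 0.915), miR-201-5p (r = 0.873), miR-26b-5p (r = 0.840) and miR-500-3p (r = 0.805). Over the 444 other tested miRNAs the median r was -0.14 and the 95th percentile 0.666. None of these 5 miRNAs passed, with log2 differences from -0.50 for miR-500-3p to -0.022 for let-7i-5p (limma adjusted p = 0.525 and 0.909). They were picked for following a mean that differed little between the groups, so their tests are not a separate result.

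Of the other miRNAs described as limiting cardiac fibrosis, 1 of 8 rose and 0 fell after MI by limma's adjusted p, where 1.78% of all tested miRNAs rose and 0.668% fell, and the median log2 difference of the list was -0.088. This list was made with earlier results of these data known, so its counts are descriptions and not a test of the list. The member that rose was miR-18a-5p, a miRNA of the miR-17 cluster described as repressing matrix proteins in ageing heart. Its log2 signals were 7.99, 7.96 and 7.96 in MI arrays and 7.18, 7.11 and 7.31 in controls, a difference of 0.77 ± 0.076 (SE; limma adjusted p = 0.00356, n = 3 per group). MiR-133a-3p and miR-30c-5p, which repress connective tissue growth factor, had log2 differences of -0.10 ± 0.090 and -0.13 ± 0.075 (SE; limma adjusted p = 0.657 and 0.525). MiR-101a-3p, described as repressing the transcription factor Fos in rat cardiac fibroblasts, had 13.10, 13.25 and 13.23 in MI arrays and 13.37, 13.39 and 13.50 in controls, a difference of -0.22 ± 0.077 (SE; limma adjusted p = 0.268). With the replicate number as a block 0 of the 8 passed, and miR-18a-5p kept its difference of 0.77 (limma adjusted p = 0.0508). With the array code as a block or in the arrays of that code alone, where MI is represented by replicate 1 only, 0 passed and its difference was 0.79 (limma adjusted p = 0.0626 and 0.121, against 0.00193 to 0.121 over its alternatives).

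Of the miRNAs described as promoting cardiac fibrosis, 7 of 8 were tested, and 2 rose and 0 fell by limma's adjusted p. Of all tested miRNAs, 1.78% rose and 0.668% fell. The list's median log2 difference was 0.035. As with the other list, its members were chosen with earlier results of these data known, so the counts do not test the list. MiR-21-5p, which acts in cardiac fibroblasts through inhibitors of growth factor signalling, had log2 signals of 14.74, 14.66 and 14.55 in MI arrays and 13.66, 13.52 and 13.67 in controls, a difference of 1.03 ± 0.084 (SE; limma adjusted p = 0.00209, n = 3 per group). MiR-503-5p stood at 8.98, 9.16 and 9.22 in MI arrays and 8.67, 8.64 and 8.54 in controls, a difference of 0.50 ± 0.088 (SE; limma adjusted p = 0.0401). The third by p was miR-208a-3p, whose gene lies within that of a heart myosin, at -0.21 ± 0.083 (SE; limma adjusted p = 0.335). MiR-21-5p passed under all 19 alternatives other than leaving out single arrays and in all 6 fits that left out 1 array. The fit without control replicate 3 is the same as that of the arrays that share a scan, and it counts in both sets. MiR-503-5p missed the threshold in 14 of those 19 and 5 of those 6, with log2 differences of 0.36 to 0.57 throughout (limma adjusted p = 0.0195 to 0.402).

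Markers of other cell types were read on the same arrays, on which 2.45% of all tested miRNAs were called. The 5 smooth muscle and fibroblast miRNAs had a median log2 difference of 0.013 with 0 calls, and a summed signal of 63995 to 66613 in MI arrays and 64933 to 76919 in controls. Of the 6 leukocyte miRNAs 0 passed, against 2.45% of all tested miRNAs, and their single values went in opposite directions. MiR-223-3p, abundant in neutrophils, had 11.64, 12.84 and 12.51 in MI arrays and 10.80, 10.89 and 10.95 in controls, a difference of 1.45 ± 0.29 (SE; limma adjusted p = 0.0619, n = 3 per group). MiR-146a-5p and miR-150-5p had lower MI arrays without overlap, at -0.29 and -0.21 (limma adjusted p = 0.194 and 0.373). The summed leukocyte signals were 22209 to 28120 in MI arrays and 21647 to 24832 in controls. The 2 endothelial miRNAs lay below 0 with 0 calls, at 74116 to 74562 in MI arrays and 76179 to 87862 in controls, so their summed signals did not overlap between the groups. Such sums weigh each miRNA by the brightness of its probes. Most of the endothelial sum was miR-126a-3p, with a control mean of 16.18 in log2 signal against 12.93 for miR-126a-5p. Of the pair, miR-126a-3p had groups that did not overlap, as 9.8% of all tested miRNAs did with MI lower, and those of miR-126a-5p overlapped. The 2 erythroid miRNAs stood above 0 with 0 calls, at 23237 to 32690 in MI arrays and 18409 to 26263 in controls. The part of these cell types in the miR-29 values was not tested.

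The miR-29 differences were larger in size once the header code was a term in limma. With this block, the log2 differences (MI minus control) were -0.38 ± 0.10 for miR-29c-5p, -0.24 ± 0.12 for miR-29c-3p, -0.21 ± 0.11 for miR-29a-5p, -0.080 ± 0.12 for miR-29a-3p and -0.078 ± 0.17 for miR-29b-3p (SE). None passed, with limma adjusted p values from 0.312 to 0.885, against 0.176 to 1 over all alternatives of the 5 strands. These values rest on MI replicate 1 against the 3 controls, since the other code holds MI samples only, and the 4 arrays of the shared code taken alone gave the same differences. In the 5 arrays that shared a scan, miR-29c-5p stood at -0.20 and miR-29c-3p at -0.10.

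The authors' processed values gave the 3p strands little room to differ. Over the 6 arrays, miR-29a-3p and miR-29b-3p each took 3 different values there and miR-29c-3p took 2, all between 14.87 and 15.15 on the log2 scale, whereas the software's total signal gave 6 different values for each strand. The software total was not scaled between arrays here, so its span includes differences in brightness between whole arrays. Over the arrays, miR-29c-3p spanned 0.070 in the authors' values and 0.477 in the log2 of the software total. Its scaled log2 signal ran from 15.74 to 16.07. At the dim end the authors' values had the wider span. MiR-29b-5p spanned 3.36 in the authors' values, with 2.51 in MI replicate 1 as the highest array and -0.86 in control replicate 3 as the lowest. In the software total it spanned 0.728 on the log2 scale, and there MI replicate 1 was the lowest array, at a total signal of 1.64, and control replicate 3 the highest, at 2.72.

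**Figure D5:**
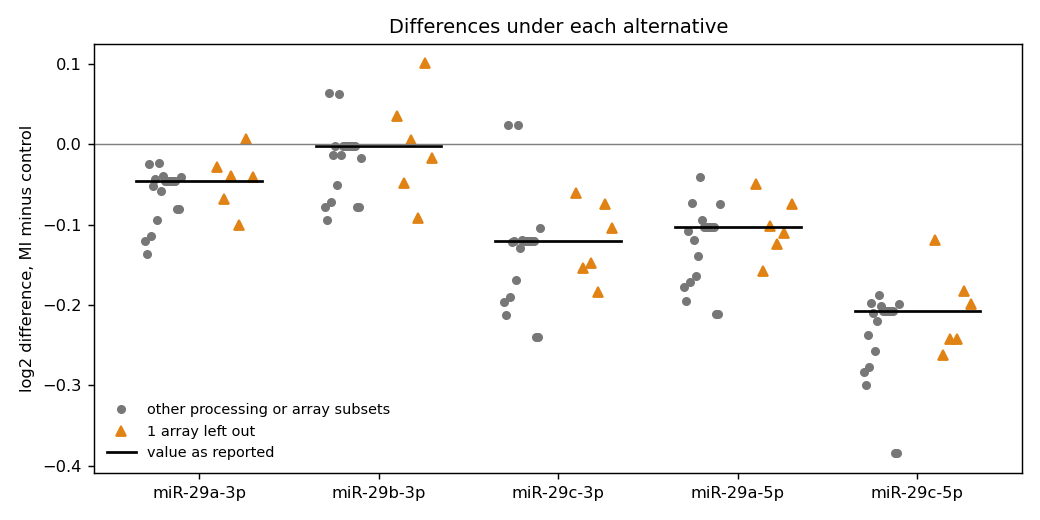
Log2 difference, MI minus control, of the 5 tested miR-29 strands as reported (line), under other processing or array subsets (grey circles) and with 1 array left out (orange triangles). MiR-29c-5p and miR-29a-5p stay below 0 throughout, whereas points of the 3p strands lie on both sides of 0.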

How the data were processed

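Total RNA from 6 rat myocardium samples was hybridised to Agilent single-colour miRNA arrays, and groups were read from the time in the sample titles. The submitters' processing notes name Agilent Feature Extraction 11.0.1.1. The deposited spot signals are, per the file headers, linear intensity with background subtracted, beside flags of 0 or 1 for outliers and for signals well above background. The deposited series table holds log2 values, for which no step is given in the sources used here. Its columns share their median and quartiles.

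From the spot intensities, outlier spots were left out (8.32% to 9.63% per array) and spots averaged per probe. The scaling level was the 75th percentile over 885 probes, those detected on every array. Probes of a miRNA were summed, set to a floor of 5.14 and log2 transformed. Detection of a probe required more than 50% of spots well above background. Testing required detection on every array of 1 group or both, met by 449 of 758 miRNAs, with limma 3.58.1 in R 4.3.3 (group only, 4 residual and 2.52 prior degrees of freedom, Benjamini-Hochberg adjustment, threshold 0.05). The number of arrays limits the precision. Ratios were tested by exact permutation. The steps were run on simulated data with planted changes larger than the miR-29 differences, so that run does not bear on differences of this size. Alternatives were other scalings, probe summaries, filters, floors, background correction, variance settings, blocks and array subsets. The rule for named miRNAs took all 6 strands, miR-21-5p, miR-133a-3p and miR-30c-5p, up to 2 more per fibrosis list by smallest p, and the 5 miRNAs most like the 3p mean. The members and lists were chosen with earlier results of these data known.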

Additional observations from a re-analysis of the deposited data

How the results depend on the processing

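Of the 25 alternatives tried, the arrays that share a scan and the fit without control replicate 3 are the same. None of the 5 tested miR-29 strands passed the threshold under any of these alternatives. MiR-29c-5p and miR-29a-5p kept their sign in all of them, with log2 differences from -0.38 to -0.12 and from -0.21 to -0.041. Quantile normalization and the authors' processed values turned the sign of miR-29b-3p (0.064 and 0.062), of miR-29c-3p (0.023 in both) and of the ratio of miR-29c-3p over miR-29a-3p (0.048 and 0.047), and normexp on the median spot signals turned that of miR-29a-5p over miR-29a-3p (0.018). The cause was not tested. With 1 array left out, miR-29b-3p ranged from -0.092 to 0.10 and was above 0 without MI replicate 1 (0.035), MI replicate 3 (0.0053) or control replicate 2. MiR-29a-3p ranged from -0.10 to 0.0064, the highest value being that without control replicate 2.

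The count of miRNAs past the threshold was 11. It ranged from 3 to 13 over the 19 alternatives other than leaving out single arrays, with 13 under limma's trend and robust variance settings. The count was 7 with no scaling, 5 with no filter and 6 with a floor 4 times as high. It was 3 with the array code as a block and 5 in the arrays that shared a scan. Leaving out 1 array gave 4 to 10. Of the miRNAs described as promoting fibrosis, 2 passed, and 1 passed with the 75th percentile over all probes, median scaling, quantile normalization, no scaling, the mean of log2 probe values, the software total signal, the authors' processed values, no filter, the software detection flag, a floor 4 times as high, the replicate block, the array code as a block, the arrays of the code with both groups and the arrays that share a scan. Leaving out 1 array gave 1 to 2. Of the miRNAs described as limiting fibrosis, 1 passed, and 0 passed with the replicate block, the array code as a block and the arrays of the code with both groups.

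Replicate numbers are shared between the groups in the labels. Over all tested miRNAs, the deviations of same-numbered samples correlated at 0.116, -0.036 and 0.114, so the numbers were not taken to pair the samples. The mean deviations of the 3p strands did run in the same order by number. They were -0.076, 0.068 and 0.0089 in MI replicates 1 to 3 and -0.14, 0.13 and 0.0042 in the control replicates. Why they did so was not tested. With the replicate number as a block, 3 miRNAs passed, and miR-29c-5p had the same difference of -0.21 (limma adjusted p = 0.348; 0.176 to 0.700 over its alternatives).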

Other observations

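The array also carried miR-29b-1-5p, the 5p arm of Mir29b1 on chromosome 4, which is not among the 6 strands described. It was well above background on 0 of 6 arrays. By the flag of the scanner software it was detected in MI replicates 1 and 2 and in control replicate 2. Its log2 signals were 4.83, 4.46 and 3.42 in MI replicates 1 to 3, and 4.13, 4.36 and 3.98 in the control replicates. The MI values spread more widely than the controls and lay on both sides of them. From the cluster on chromosome 4, miR-29a-5p was the only 5p strand tested.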
